A study of Mus musculus with 24 samples.

Results

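Formins are large proteins that start and lengthen straight actin filaments. In most of them a pair of homology domains holds the growing filament end and takes up actin bound to profilin, and many of them are held in an inactive folded state until they are released. In neurons, filaments of this kind are part of dendritic spines, axon growth and the cell cortex. The 10 formin genes followed here were Fmn1, Fmn2, Fmnl1, Fmnl2, Fmnl3, Diaph1, Diaph2, Daam1, Daam2 and Inf2. Probes were taken by the gene name in the scanner files, with Diap1 and Diap2 read as Diaph1 and Diaph2, which gave 23 probes of 9 genes. Inf2 had no probe under that name, and 1 probe named 2610204M08Rik was added because its accession belongs to Inf2, so 24 of 41174 probes were followed, for 10 of the 19955 genes that the probes name.

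Hippocampal RNA of C57Bl/6 mice was measured on 24 Agilent arrays in 6 groups of 4 arrays. Old fear and young fear mice, aged 16 and 3 months, spent 3 min in a context, received a 0.7 mA foot shock of 2 s and were sampled 1 h later. Young context mice were labelled as exposed to the context, and young shock-context mice as exposed to shock and context, each sampled 1 h later. Old control and young control mice, aged 16 and 3 months, were naive. The design asks how fear conditioning changed hippocampal RNA and whether that differed with age. The labels do not say whether any animals were pooled, so p-values measure the spread between these samples.

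A level below is the log2 of an array's processed signal minus that array's 75th percentile, and a change is a difference of such levels. Levels of different probes cannot be set against each other. A probe was called where its adjusted p was under 0.05 over all 38768 probes tested. Of the 24 formin probes, 23 were tested. Diaph2 probe A_52_P843369 was well above background on 0 arrays and was left out.

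The 16 fear and control arrays formed scan run 1, on slides that each held 1 array of each group, and the 8 context and shock-context arrays formed scan run 2. The 75th percentile of signal was 3100.2 to 8369.3 in run 2 and 755.8 to 2132.1 in run 1, so run and treatment cannot be told apart in any comparison across the runs. Within young fear, arrays 1 and 2 lay close to each other, with a median absolute difference of 0.114 over probes, as did arrays 3 and 4 at 0.132, against 0.21 to 0.307 for the other pairs of arrays. In old fear these pairs differed by 0.173 and 0.139, against 0.199 to 0.251 for the others. In young control they differed by 0.213 and 0.255, against 0.287 to 0.387. In old control arrays 3 and 4 differed by 0.172. Arrays 1 and 2 there differed by 0.349. Arrays 1 and 3, 1 and 4, 2 and 3, and 2 and 4 differed by 0.223, 0.261, 0.377 and 0.309. Estimated over the tested probes, arrays of a pair correlated by 0.37 about their group means, which the main fit left out. Repeated spots of a probe on 1 array differed by a median of 0.065 to 0.129 on 15 of the 16 arrays of run 1 and by 0.24 on old control array 2. Choroid plexus markers differed too: in young fear against young control 14 of 14 measured markers were lower, and their summed signal, in multiples of the 75th percentile, was 10.34 to 16.41 in young fear and 92.15 to 155.5 in young control. Ttr, the transthyretin gene of the choroid plexus, fell by 4.83 on the log2 scale (SE 0.45, adjusted p = 5.88e-08). Of 15 thalamus markers 11 were higher and 1 lower in young fear, with summed signals of 29.41 to 33.32 in young fear and 21.48 to 25.93 in young control, and Prkcd, a protein kinase C gene, rose by 2.09 (SE 0.14, adjusted p = 1.532e-09). Of 12 oligodendrocyte and myelin markers 7 were higher and 2 lower, with summed signals of 176.4 to 193.1 in young fear and 142 to 150.6 in young control. Their part in the formin results was not tested. All 12 markers of hippocampal excitatory neurons were measured; 2 were higher and 4 lower, with summed signals of 89.76 to 91.26 in young fear and 98.48 to 107.5 in young control. The summed signals of astrocyte, microglia and endothelial and mural markers did not overlap either, at 152 to 164, 26.23 to 28.3 and 13.32 to 14.31 in young fear, against 170 to 200.5, 32.98 to 40.76 and 16.06 to 21.6 in young control, in that order. Of these markers 2 of 10, 2 of 12 and 5 of 12 were called higher and 3, 4 and 4 lower. Over all probes in this comparison, 17.1% were called higher and 27.6% lower, and 42.0% did not overlap between the groups. The part of these markers was not tested either. In bulk tissue, fewer cells of a type and less RNA per cell cannot be told apart.

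The probe sequences below are shown so that the readings on each gene can be placed: the probes of Fmn2 and of Fmnl2 differed in direction, those of Fmnl1 did not, and the Diaph2 probe had the formin change of smallest adjusted p. They are given 5′ to 3′ in lower case, whole or as the first 30 bases, with mm9 positions from the scanner files. Fmn2 probe A_52_P256647, at chr1:176540082-176542695 on the plus strand, spans 2614 bases of genome with 60 bases of sequence and lies on the 5′ side of A_51_P253310, at chr1:176751781-176751840.
Fmn2 A_52_P256647: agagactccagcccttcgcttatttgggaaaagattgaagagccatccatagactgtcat
Fmn2 A_51_P253310, first 30 bases: ttcgttcctagtgaattctttgtatctact
The Fmnl1 probes lie on the plus strand at chr11:103057752-103057811 for A_52_P96025 and chr11:103059008-103059067 for A_51_P404110.
Fmnl1 A_52_P96025: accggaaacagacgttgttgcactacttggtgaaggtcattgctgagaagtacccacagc
Fmnl1 A_51_P404110: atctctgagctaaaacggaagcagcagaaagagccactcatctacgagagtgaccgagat
The Fmnl2 probes lie on the plus strand at chr2:52982513-52982572 for A_52_P640296 and chr2:52992628-52992687 for A_51_P222936.
Fmnl2 A_52_P640296: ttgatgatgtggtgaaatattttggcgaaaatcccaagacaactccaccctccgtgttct
Fmnl2 A_51_P222936, first 30 bases: acaaatcagctgctttccaaaggcgtgcat
Diaph2 probe A_51_P442366, on the plus strand at chrX:126995598-126995657, was the most 3′ of the 4 Diaph2 probes.
Diaph2 A_51_P442366, first 30 bases: ggaagggaagtgtattggtagttactgcaa

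In young mice 1 h after fear conditioning, both Fmnl1 probes, the 3′ Fmn2 probe and a Diaph1 probe were higher than in young control, and the most 3′ Diaph2 probe and the 3′ Fmnl2 probe were lower. In all, 13 of 23 formin probes were called, 5 higher and 8 lower, where 44.7% of all probes were called, 17.1% higher and 27.6% lower. No test set the formins apart from the array. The median change was -0.13 over the formin probes and -0.28 over all probes. Values did not overlap between the groups for 7 of 23 formin probes, and for 42.0% of all probes. With arrays 1 and 2 and arrays 3 and 4 of each group averaged, 6 of the 13 calls held, and the genes of those probes are described first.

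Fmn2 encodes a formin known in mouse oocytes for positioning the meiotic spindle. Its 3′ probe A_51_P253310 had levels of -0.08, -0.06, 0.18 and 0.16 in young fear, against -0.71, -0.89, -0.64 and -0.78 in young control. The groups did not overlap, and the change was 0.80 (SE 0.12, adjusted p = 2.478e-05), a 1.747-fold rise. Within the 4 slides the differences were 0.63 to 0.93. The 5′ Fmn2 probe A_52_P256647 had levels of -2.44, -2.28, -2.07 and -2.27 in young fear, against -1.81, -1.97, -1.43 and -1.47 in young control. Those groups did not overlap either, and this probe fell, by 0.59 (SE 0.24, adjusted p = 0.04739), in 4 of 4 slides. Its call ended with array pairs averaged (adjusted p = 0.1429), with median scaling (0.07782), with normexp background correction (0.1054) and with the deposited values (0.05563), and it was kept in 2 of 8 fits that left out 1 array, those without young control array 2 or young fear array 3, and the adjusted p reached 0.1243 in the others. The probes of Fmn2 thus gave opposite signs, and relative to the median of all probes they stood at 1.08 for the 3′ one and -0.32 for the 5′ one.

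Fmnl1 encodes a formin-like protein best known in blood cells. Probe A_51_P404110 had levels of -1.12, -1.12, -0.50 and -0.49 in young fear, against -2.29, -2.37, -1.52 and -2.05 in young control. Probe A_52_P96025 had levels of -1.70, -1.70, -1.01 and -0.77 in young fear, against -2.83, -2.70, -2.45 and -2.68 in young control. All young fear arrays lay above all young control arrays on both probes, and within young fear arrays 3 and 4 lay above arrays 1 and 2. The changes were 1.25 (SE 0.18, adjusted p = 1.312e-05) for A_51_P404110 and 1.37 (SE 0.19, adjusted p = 5.029e-06) for A_52_P96025. Within slides they ran from 1.02 to 1.55 for A_51_P404110 and from 1.00 to 1.91 for A_52_P96025.

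Fmnl2, a formin-like protein of lamellipodia and filopodia, had probes of opposite sign. Probe A_51_P222936 had levels of 1.49, 1.36, 1.20 and 1.23 in young fear, against 2.11, 2.07, 1.74 and 1.70 in young control, with no overlap. It fell by 0.59 (SE 0.12, adjusted p = 0.0004373). The more 5′ probe A_52_P640296 had levels of -2.58, -2.48, -2.14 and -2.15 in young fear, against -2.79, -2.58, -2.54 and -2.81 in young control. Here the groups overlapped and the change was 0.34 (SE 0.12, adjusted p = 0.02692). That call ended with array pairs averaged (adjusted p = 0.1818) and held in 4 of 8 fits without 1 array, and with another background correction the change was -0.03 (adjusted p = 0.9536).

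Diaph1 and Diaph2 encode diaphanous formins, which lengthen unbranched filaments. Diaph1 probe A_52_P218369 had levels of 1.53, 1.65, 1.62 and 1.82 in young fear, against 1.34, 1.34, 1.12 and 0.92 in young control. It rose by 0.47 (SE 0.11, adjusted p = 0.001072), while Diaph1 probe A_51_P427768 changed by -0.13 (SE 0.29, adjusted p = 0.7261). Diaph2 probe A_51_P442366 had levels of -0.64, -0.60, -0.16 and -0.29 in young fear, against 0.72, 0.85, 1.40 and 1.34 in young control. This was the formin probe of smallest adjusted p in the comparison: it fell by 1.5 (SE 0.14, adjusted p = 7.762e-08), and by 1.35 to 1.63 within slides. Diaph2 probe A_52_P668900 fell by 0.53 (SE 0.21, adjusted p = 0.04275), a call that ended with array pairs averaged (adjusted p = 0.1947), with median scaling (0.09251) and with normexp (0.1126), and held in 4 of 8 fits without 1 array. Diaph2 probe A_52_P348638 differed by 0.72 (SE 0.58, adjusted p = 0.3096).

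**Figure D1:**
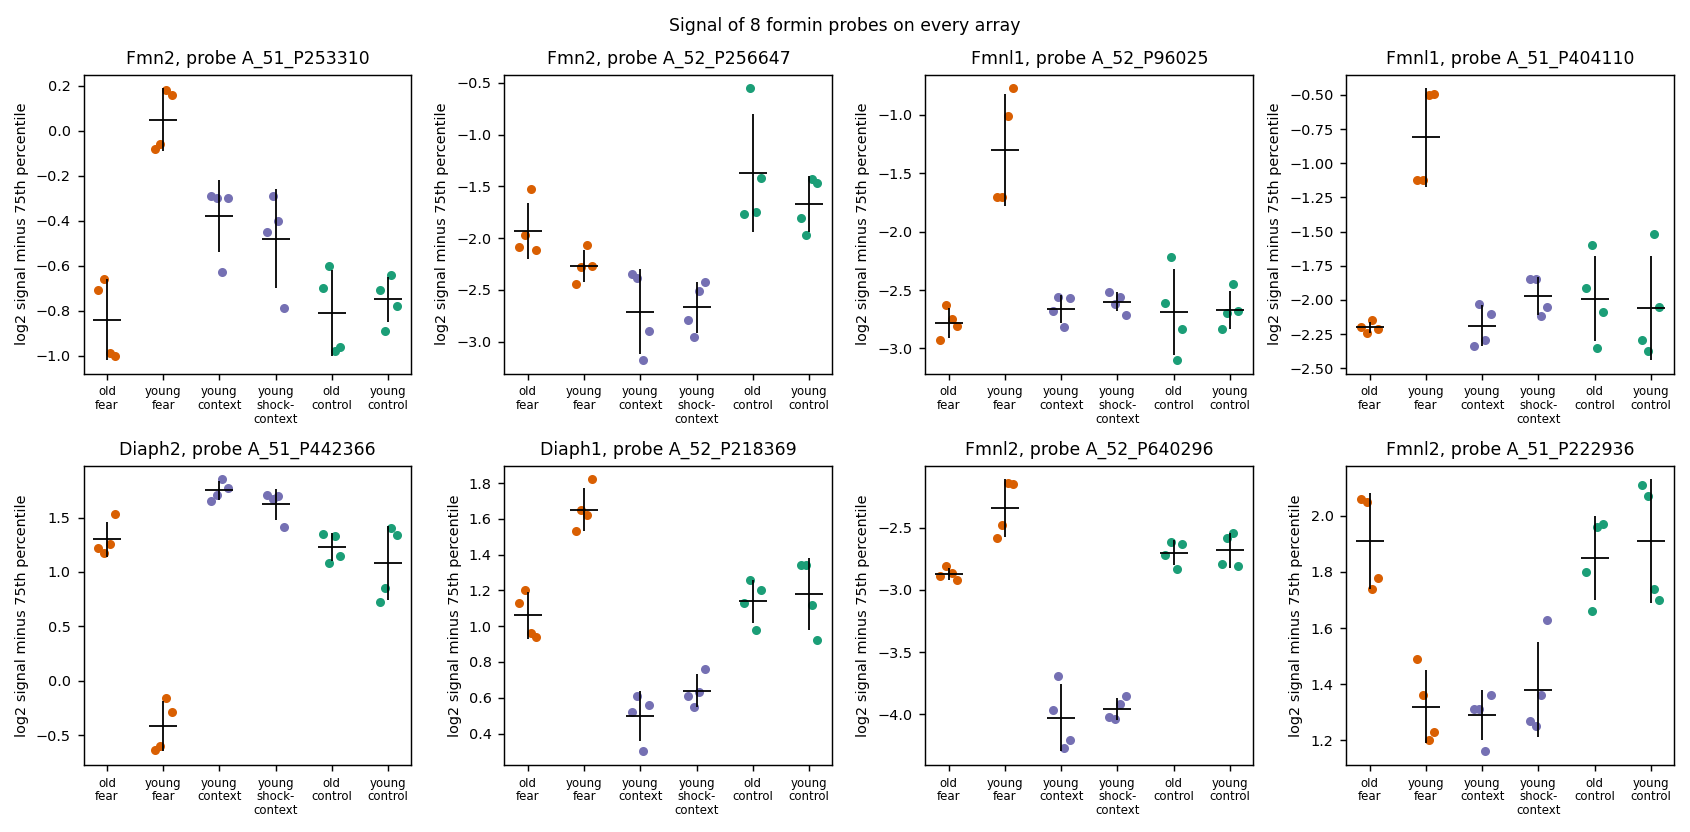
Levels of 8 formin probes on all 24 arrays (y axis, log2 signal minus the array's 75th percentile, scales differ between panels) in the 6 groups (x axis). Points are arrays in replicate order, horizontal marks are group means and vertical bars are SDs (n = 4); young fear stands above young control for Fmn2 A_51_P253310 and both Fmnl1 probes, and below it for Diaph2 A_51_P442366.

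Daam1 and Daam2 encode formins bound by Dishevelled, a protein of Wnt signalling. Daam1 probe A_51_P394574 fell by 0.80 (SE 0.31, adjusted p = 0.0392), while the other Daam1 probes changed by -0.07 for A_51_P302192 and -0.01 for A_52_P276748, neither called. Daam2 probes A_52_P412674 and A_51_P328202 fell by 0.75 (SE 0.26, adjusted p = 0.02362) and 0.37 (SE 0.13, adjusted p = 0.02936), and A_52_P390241 changed by 0.18 (adjusted p = 0.4012). These 3 calls ended with array pairs averaged, at adjusted p = 0.2165 for the Daam1 probe, 0.1241 for A_52_P412674 and 0.1609 for A_51_P328202, and held in 2, 4 and 3 of 8 fits without 1 array, in that order. With the deposited values none of the 3 was called, and their changes were -0.23, -0.18 and -0.22.

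Fmn1, the gene to which mouse limb deformity mutations were mapped, had 1 called probe of 4. Probe A_52_P672882, which has no mm9 position in the files, had levels of -6.89, -6.39, -6.26 and -6.03 in young fear, against -6.04, -5.11, -5.30 and -5.21 in young control. It fell by 0.98 (SE 0.29, adjusted p = 0.009324), with adjusted p = 0.06245 once array pairs were averaged and 0.2729 with normexp. With the deposited values the change was -0.18 (adjusted p = 0.1343), so its size depends on the processing. Fmn1 probes A_52_P321725, A_52_P418013 and A_51_P349912 changed by 0.32, -0.20 and -0.06 and were not called in the main fit. A_52_P321725 was called higher with quantile normalization (0.67, adjusted p = 0.001664), median scaling (0.46, adjusted p = 0.01314) and the deposited values (0.53, adjusted p = 0.001905). With the replicate block it was called too (adjusted p = 0.04131). The single probes of Fmnl3 (A_52_P104769) and Inf2 (A_51_P281835) changed by -0.21 (SE 0.11, adjusted p = 0.124) and -0.17 (SE 0.16, adjusted p = 0.3755).

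By order along the gene, the pattern was not the same across formins, and not all of these changes were called. The most 3′ tested probe had the highest change in Fmn2, Diaph1, Daam1 and Daam2. It had the lowest in Fmnl2, Diaph2 and Fmnl1, though both Fmnl1 probes rose, and in Fmn1 it lay between the others with a position. Of 5 formin genes with at least 2 called probes, Fmn2 and Fmnl2 had calls of opposite sign. Over the array, 1217 of 3083 such genes, or 39.5%, did.

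**Figure D2:**
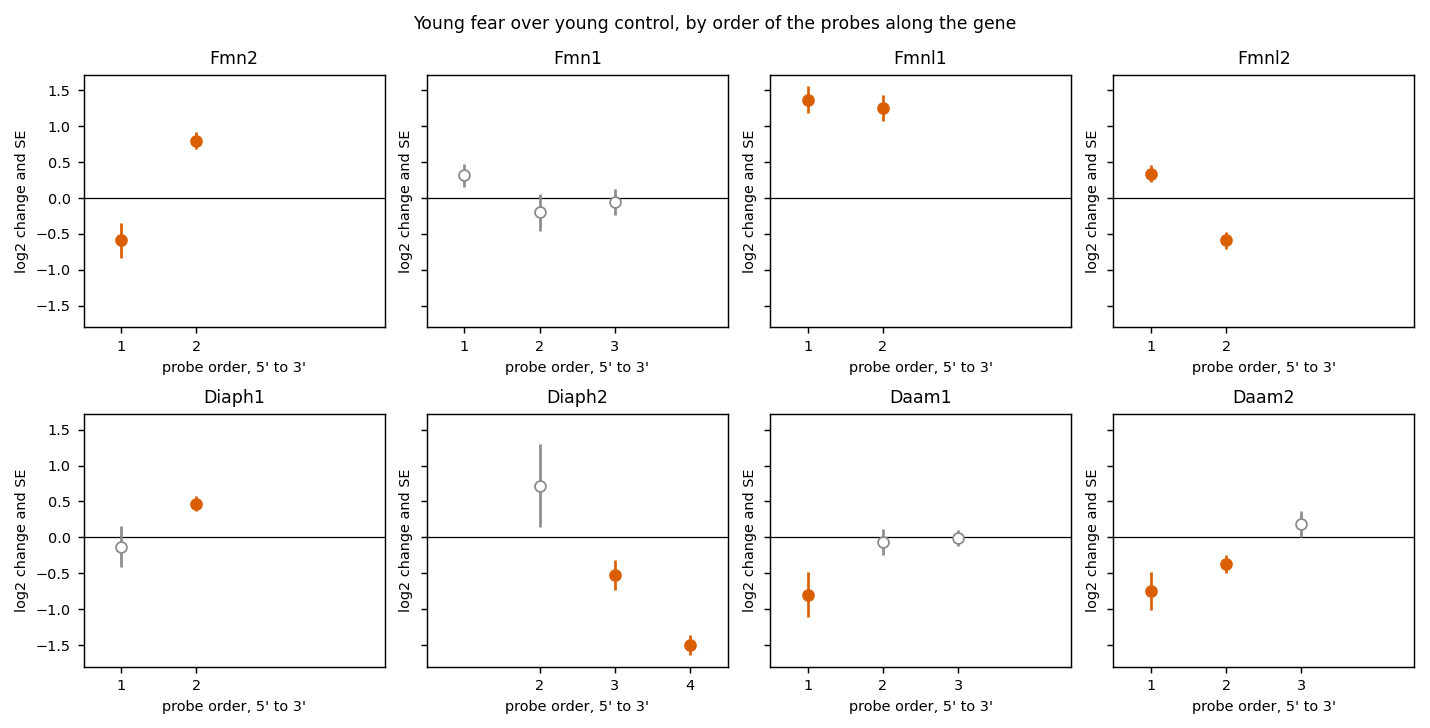
Change in young fear over young control (y axis, log2, bars are SEs) by order of each formin probe from the 5′ to the 3′ end of its gene (x axis); filled orange points are called. Fmn2 runs from -0.59 to 0.80 and Fmnl2 from 0.34 to -0.59, so probes of these genes lie on both sides of 0.

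In old mice, no formin probe was called after fear conditioning: 0 of 23 in limma, where 0.124% of all probes were called, and the median change was -0.09 over the formin probes and -0.07 over all. The adjustment was made within each comparison, and a call needed a smaller unadjusted p in old mice than in young mice. In old mice 48 of all probes were called and 5143 had an unadjusted p under 0.05, against 17333 and 20300 in young mice. Fmn2 probe A_51_P253310 had levels of -0.71, -0.66, -0.99 and -1.0 in old fear, against -0.70, -0.60, -0.98 and -0.96 in old control. These values overlapped, and the change was -0.03 (SE 0.12, adjusted p = 0.9417). Fmn2 probe A_52_P256647 had levels of -2.09, -1.97, -1.53 and -2.12 in old fear, against -1.77, -0.55, -1.75 and -1.42 in old control. Its change of -0.55 (SE 0.24, unadjusted p = 0.02957, adjusted p = 0.3247) did not pass the threshold. It rested in part on old control array 2, at -0.55, which was also the array of largest spot noise: without that array it was -0.28, and within slides it ran from -1.42 to 0.22. The Fmnl1 changes in old mice were -0.21 (SE 0.18) for A_51_P404110 and -0.09 (SE 0.19) for A_52_P96025, and that of Diaph2 A_51_P442366 was 0.07 (SE 0.14). Of the choroid plexus markers, 0 of 14 were called in old fear against old control, and of the thalamus markers 6 of 15 were higher.

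**Figure D3:**
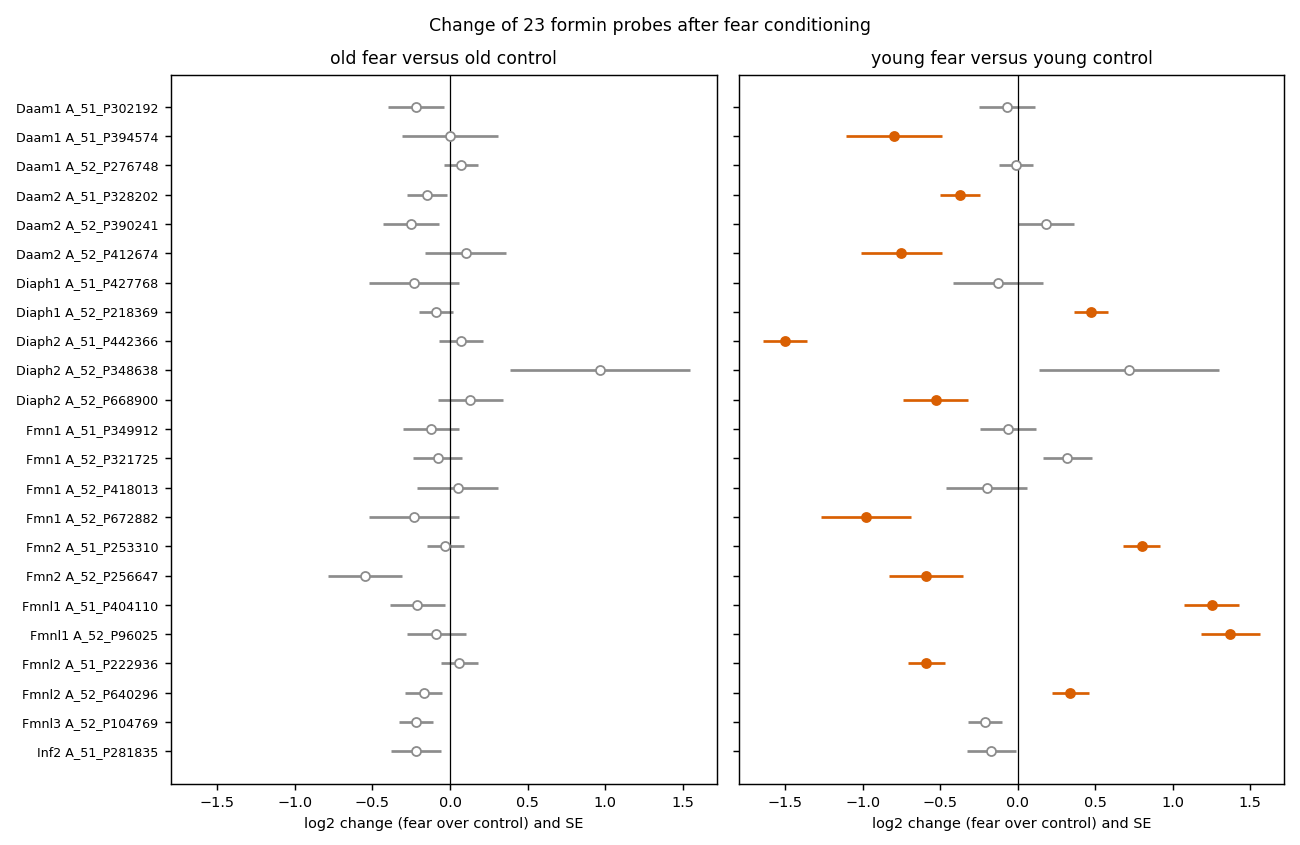
Change of the 23 tested formin probes after fear conditioning (x axis, log2 fear over control, bars are SEs) in old mice (left) and young mice (right); filled orange points are called. In young mice 13 probes are called, from Diaph2 A_51_P442366 at -1.5 to Fmnl1 A_52_P96025 at 1.37, and in old mice 0, with p adjusted within each age.

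The difference between ages was tested directly, as the change at 16 months minus that at 3 months. It was called for 7 of 23 formin probes, 2 higher and 5 lower, where 26% of all probes were called, 14.6% higher and 11.4% lower. Fmn2 probe A_51_P253310 had a difference of -0.83 (SE 0.18, adjusted p = 0.001409), and the Fmnl1 probes had -1.46 each (SE 0.26, adjusted p = 0.0002985 for A_51_P404110 and 0.0003382 for A_52_P96025). Diaph2 probe A_51_P442366 had 1.57 (SE 0.20, adjusted p = 1.408e-05). Diaph1 probe A_52_P218369 had -0.56, and the Fmnl2 probes had 0.65 for A_51_P222936 and -0.51 for A_52_P640296. With array pairs averaged, 3 of the 7 calls held, those of Fmnl1 and Diaph2, and Fmn2 A_51_P253310 had adjusted p = 0.06798. With normexp background correction 2 of the 7 held, those of Fmn2 and Diaph2, and the Fmnl1 probes had adjusted p = 0.07498 for A_51_P404110 and 0.2008 for A_52_P96025. The call of Fmnl2 A_52_P640296 held in 9 of 16 fits without 1 array. The 5′ Fmn2 probe A_52_P256647 had a difference of 0.04 (SE 0.34, adjusted p = 0.9499). In this test 14 of 14 choroid plexus markers were higher, with a median of 3.24. Of 12 oligodendrocyte and myelin markers 0 were higher and 7 lower, and of 15 thalamus markers 2 were higher and 2 lower. Their part in the formin differences was not tested.

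Without training, age made no called difference: 0 of 23 formin probes were called in old control against young control by limma, where 0.547% of all probes were, and the smallest adjusted p was 0.2475, for Daam1 A_52_P276748 at -0.34. Fmn2 probe A_51_P253310 differed by -0.06 (SE 0.12) and A_52_P256647 by 0.30 (SE 0.24). Between the trained groups, old fear against young fear, 12 of 23 formin probes were called, 6 higher and 6 lower, where 39.9% of all probes were, 23% higher and 16.9% lower. Fmn2 probe A_51_P253310 had a change of -0.89 (SE 0.12, adjusted p = 8.155e-06) and Diaph2 A_51_P442366 one of 1.72 (SE 0.14, adjusted p = 1.577e-08). This comparison shares the young fear arrays with that of young fear and young control.

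The context and shock-context arrays were of the other scan run. In young fear against context 14 of 23 formin probes were called, where 65.9% of all probes were, and in young fear against shock-context 14 of 23, where 64.8% were. Values did not overlap between the groups for 13 and 14 formin probes, and for 62.1% and 64.8% of all probes, in that order. Fmn2 probe A_51_P253310 was -0.29, -0.30, -0.63 and -0.30 in context and -0.45, -0.29, -0.40 and -0.79 in shock-context, all below the young fear arrays. Its change was 0.43 (SE 0.12, adjusted p = 0.004904) in young fear against context and 0.53 (SE 0.12, adjusted p = 0.0009523) against shock-context. With median scaling neither was called, at 0.21 (adjusted p = 0.1587) and 0.29 (adjusted p = 0.05626). Fmnl1 A_51_P404110 was higher in young fear by 1.38 (SE 0.18) than in context and by 1.16 (SE 0.18) than in shock-context, and Diaph2 A_51_P442366 differed by -2.17 (SE 0.14) and -2.04 (SE 0.14).

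Against young control, 16 of 23 formin probes were called in context, where 68.9% of all probes were, and 16 of 23 in shock-context, where 65.5% were. Values did not overlap with young control for 14 formin probes in each, and for 60.9% and 59.8% of all probes. Fmn1 probe A_51_P349912 had levels of -1.53, -1.78, -2.56 and -2.13 in context and -1.90, -2.01, -1.59 and -1.58 in shock-context, against -0.65, -1.01, -0.86 and -0.55 in young control. No array of context or shock-context reached those of young control, and the changes were -1.23 (SE 0.18, adjusted p = 5.336e-06) in context and -1.0 (SE 0.18, adjusted p = 7.013e-05) in shock-context, each called under 9 of 9 other settings. Neither Fmnl1 probe was called in either comparison. In shock-context A_51_P404110 was called with median scaling (0.47) and the deposited values (0.38), and A_52_P96025 with these (0.44 and 0.45) and with quantile normalization (0.46). In context A_52_P96025 was called with the deposited values (0.40, adjusted p = 0.009576). Fmn2 probe A_52_P256647 changed by -1.03 (SE 0.24, adjusted p = 0.0006368) in context and -1.0 (SE 0.24, adjusted p = 0.0009504) in shock-context, and A_51_P253310 by 0.37 (adjusted p = 0.01147) in context and 0.27 (adjusted p = 0.06021) in shock-context. The A_51_P253310 calls changed with the processing: in context it was 0.21 (adjusted p = 0.3036) with normexp and 0.22 (adjusted p = 0.2072) with the deposited values, and in shock-context 0.65 (adjusted p = 0.0001766) with median scaling. Fmn1 probe A_52_P672882 was not well above background on any array of run 2, so its measured means of -7.51 in context, -8.12 in shock-context and -5.41 in young control give only a bound, at least 2.363-fold lower in context and at least 2.077-fold lower in shock-context. By limma the measured differences were called (adjusted p = 2.309e-06 in context and 1.142e-07 in shock-context), and the bounds were not tested. The bound sets the young control mean against the lowest signal well above background on each dim array, and holds for this scaling. The context call ended with quantile normalization (-0.27, adjusted p = 0.3529) and with the deposited values (-0.11, adjusted p = 0.3388), and the shock-context call with the deposited values (-0.18, adjusted p = 0.09832). Between context and shock-context, both of run 2, limma called 0 of 23 formin probes and 0% of all probes, with 2185 of all at an unadjusted p under 0.05. There Fmn2 A_51_P253310 differed by 0.10 (SE 0.12).

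**Figure D4:**
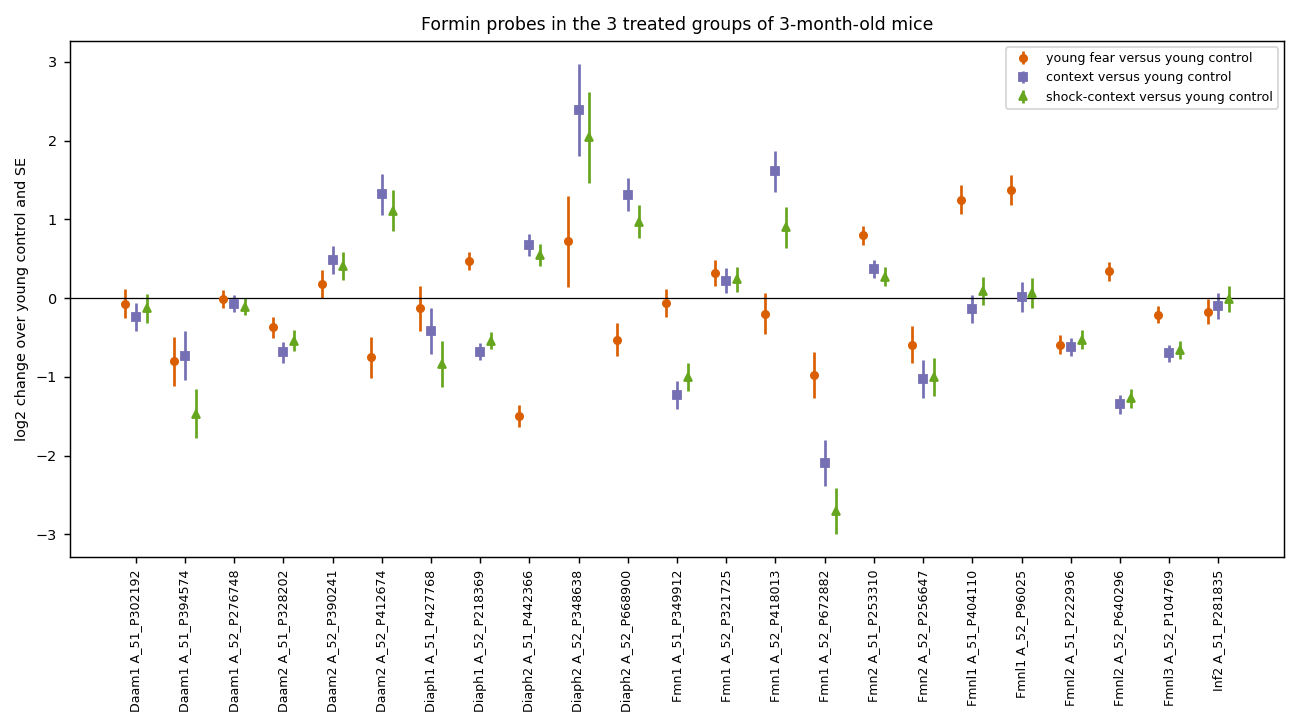
Change of the 23 tested formin probes (x axis) over young control (y axis, log2, bars are SEs) in young fear (circles), context (squares) and shock-context (triangles). Both Fmnl1 probes lie above 1 in young fear and between -0.14 and 0.09 in the other groups under this scaling, and context and shock-context were scanned in another run than young fear and young control.

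Other actin genes were read from lists, each gene by its probe of highest mean. Of 9 actin monomer and nucleation partners 6 were higher and 1 lower in young fear against young control, with a median change of 0.44. Over all probes 17.1% were higher and 27.6% lower, with a median of -0.28. Of 10 formin binding partners 1 was higher and 4 lower, with a median of 0.06. Of 14 genes of the Arp2/3 complex and its activators 3 were higher and 4 lower, with a median of -0.19, and one of the higher ones was Cttn, the gene of cortactin (1.20, SE 0.13, adjusted p = 4.219e-07). Of 9 capping and severing genes 3 were higher and 3 lower, with a median of -0.20. A list of 5 genes held Srf, its coactivators Mkl1 and Mkl2, and Vcl and Fhl2, which are known as targets of SRF; 1 was higher and 2 lower. The higher one was Vcl, the gene of the focal adhesion protein vinculin (1.17, SE 0.12, adjusted p = 1.704e-07). In old fear against old control limma called 0 genes of these lists. Among 5 further formins 1 was higher, and it was Fhdc1.

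Over the 16 arrays of run 1, the probes whose levels followed Fmn2 A_51_P253310 most closely were those of Peli1 (Pearson r = 0.985), Leng8 (0.98), Lurap1l (0.979), Crlf3 (0.976) and Ppp3cb (0.976). Of the 28913 probes ranked, 3.53% had an r over 0.9. Among formin probes the Fmnl1 ones had r = 0.95 for A_52_P96025 and 0.94 for A_51_P404110, and the 5′ Fmn2 probe had -0.45. These arrays share their groups and slides, so the values describe the pattern.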

How the data were processed

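The authors deposited scanner output with an intensity for every spot, written by Agilent Feature Extraction 9.5.3.1 per the file headers. Per the labels' protocols, 600 ng of total RNA with an integrity number of 9 to 10 was labelled with Cy3. The deposited table holds the authors' processed values, taken here as log2 from the values themselves, since no source used here states the log base; its columns rank probes as the arrays' median signals do, and it was tried as an alternative.

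Levels used here are log2 processed signals relative to each array's 75th percentile, without control spots or spots marked as outliers, and with repeated spots averaged. A probe entered the tests if 4 or more of the 24 arrays marked it well above background. Every probe was fitted with limma 3.58.1 under R 4.3.3, using statmod 1.5.0 for random blocks. The model held 6 group means over all arrays and left 18 residual degrees of freedom. Tests were two-sided, adjusted over all probes by Benjamini and Hochberg's method. The scripts were tested on simulated data. Positions are mm9, as in the file headers of run 2. The number of arrays limits the precision.

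All formin probes are named, with up to 4 listed genes of smallest adjusted p per comparison, the 5 probes most like Fmn2, Ttr and Prkcd. The members and lists were chosen with earlier results of these data known. Quantile and median scaling, normexp with an offset of 50, the deposited values, other filters, blocks for slide, replicate number and array pairs, averaged array pairs, only the arrays compared and each array left out were the alternatives.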

Additional observations from a re-analysis of the deposited data

Results flagged for a closer look

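The change after fear conditioning was called different between ages, by the test of the difference itself (16 months minus 3 months), for Fmn2 A_51_P253310 (-0.83), Fmnl1 A_51_P404110 (-1.46) and A_52_P96025 (-1.46), Diaph2 A_51_P442366 (1.57), Diaph1 A_52_P218369 (-0.56), and Fmnl2 A_51_P222936 (0.65) and A_52_P640296 (-0.51). Of these 7 calls 3 held with array pairs averaged and 2 with normexp.

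One array stood apart from the other 3 of its group in 9 of 138 groups of 4 arrays; chance gives about 1 in 20. In old control, array 2 had -0.81 for Daam1 A_51_P302192 (the others -1.89 to -1.75) and -7.15 for Diaph2 A_52_P348638 (the others -3.65 to -3.37), and array 3 had -4.49 for Fmn1 A_52_P321725. In young fear, array 4 had -2.53 for Daam2 A_51_P328202. In shock-context, array 4 had -0.63 for Daam2 A_52_P390241, 1.41 for Diaph2 A_51_P442366 and -6.25 for Fmn1 A_52_P418013. In context, array 1 had -4.07 for Daam2 A_52_P412674 and array 3 had -0.63 for Fmn2 A_51_P253310.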

How the results depend on the processing

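Of 4269 values of formin probes recomputed under other settings, 4015 kept their side of the threshold, 193 lost the call and 43 gained one. The other 18 turned sign with a call on either side. Counted among the 4015 are 2575 values called in neither fit, and 217 of these turned sign. The cause was not tested unless named. Formin calls in young fear against young control, 13 here, were 6 with normexp and 8 with the deposited values. They were 6 with pairs averaged and 7 with pairs as a random block. All-probe calls there, 17333 here, were 7040, 15258, 11353 and 13243 in that order, and averaging leaves fewer samples. For the difference between ages formin calls, 7 here, were 2 with normexp and 3 with pairs averaged. All-probe calls for it, 10065 here, were 2654 and 4158. With normexp, formin calls were 5 in old fear against young fear (12 here) and 8 in young fear against shock-context (14 here). All-probe calls were 7467 (15484 here) and 10496 (25138 here). With 1 probe per gene fewer probes were tested, and at most 10 formin probes instead of 23. Formin calls were then 5 in young fear against young control, 5 in old fear against young fear, and 6 in young fear against context and against shock-context. Against young control they were 7 in context and 6 in shock-context. All-probe calls were 11121, 9733, 16908, 16645, 18051 and 17138, in the order of these comparisons. The replicate number of the labels also names the slide in run 1. Of 24 pairs of same-numbered arrays 15 correlated above 0.1 (-0.42 to 0.65), and no label ties them to litters or days. With the replicate block, formin calls were 14 in young fear against young control and 0 in old fear against old control. All-probe calls with it were 21182 in young fear against young control, 22 in old fear against old control and 102 in old control against young control.

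Over all probes, calls in young fear against young control (17333 here) were 7040 with normexp, 11121 with 1 probe per gene and 11353 with pairs averaged. In old fear against old control (48 here) they were 155 with quantile normalization, 0 with normexp, 73 with probes well above background on all arrays, 150 with slide as a random block, 10 with array pairs as a random block, 1 with pairs averaged and 2 with only the arrays compared. For the difference between ages (10065 here) they were 2654 with normexp, 6192 with 1 probe per gene and 4158 with pairs averaged. In old control against young control (212 here) they were 13 with normexp, 408 with slide as a random block, 42 with array pairs as a random block, 4 with pairs averaged and 11 with only the arrays compared. With normexp and with 1 probe per gene they were 7467 and 9733 in old fear against young fear, 13109 and 16908 in young fear against context, and 10496 and 16645 in young fear against shock-context. Quantile normalization gave 2 in context against shock-context (0 here).

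These values turned sign. With quantile normalization, Fmn1 A_52_P321725 was -0.39 and A_52_P672882 -0.42 in young fear against context, and -0.44 and -0.05 against shock-context; Daam1 A_51_P394574 was -0.58 in young fear against shock-context, 0.58 in context and 0.06 in shock-context against young control. Inf2 A_51_P281835 in shock-context against young control was 0.37 with median scaling and 0.32 with the deposited values, with which Fmn1 A_52_P672882 was -0.08 in young fear against context and Daam1 A_51_P394574 0.20 in context against young control. With normexp, Fmnl2 A_52_P640296 was -0.03 in young fear against young control and 0.13 in old fear against young fear, Fmn1 A_52_P321725 was 0.57 in old fear against young fear, and Daam2 A_52_P412674 and Fmn1 A_52_P418013 were -0.22 and -0.40 in context and -0.29 and -0.73 in shock-context, against young control.

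Leaving out each array in turn gave 8 to 11 formin calls in young fear against young control (8 without young control array 3), 6 to 8 for the difference between ages, 10 to 13 in old fear against young fear, 13 to 14 and 12 to 14 in young fear against context and shock-context, 14 to 16 and 15 to 18 in context and shock-context against young control, and 0 in the other comparisons. All-probe calls ran from 9 (without old fear array 4) to 120 (without old control array 1) in old fear against old control, from 84 (without old control array 4) to 316 in old control against young control, and from 0 to 1 in context against shock-context. They ran from 15115 to 17776 in young fear against young control, 8843 to 10837 for the difference between ages and 13953 to 14579 in old fear against young fear. In young fear against context and shock-context they were 23493 to 25575 and 23317 to 24682. In context and shock-context against young control they were 25330 to 26293 and 23698 to 25068.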
